A study of Mus musculus with 6 samples.

Results

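Bile acid and organic anion transporters are the 10 genes *Slc10a1*, *Slco1a1*, *Slco1a4*, *Slco1b2*, *Slco2b1*, *Abcb11*, *Abcc2*, *Abcc3*, *Abcc4* and *Slc51b*, which were taken by symbol from a table of 25403 genes. Each symbol had a row, and all 10 were among the 14496 genes with enough counts to be tested. They were measured by poly(A) RNA-seq in 3 livers of C57BL6/J WT mice and 3 livers of *Themis*-KO mice, in which the gene is inactivated in the whole body, T cells included. Both groups received the MASH diet (40% of energy as fat, 20% as fructose, with 2% cholesterol) for 3 months from 10 to 12 weeks of age, and no chow-fed liver is among the samples. The labels give no sex, while the paper describes its WT and *Themis*-KO mice on this diet as male. The Y-linked *Ddx3y* had 768 to 1150 counts and *Xist*, transcribed from the inactive X chromosome of females, 1 to 8 counts in the 6 livers. The question was how loss of THEMIS alters the liver's response to this diet. Libraries held 20679642 to 25649767 estimated counts. *Themis* itself had 8.07, 25.6 and 12.0 CPM (normalized counts scaled to a common library size) in WT replicates 1 to 3 and 8.63, 7.74 and 9.97 in *Themis*-KO replicates 1 to 3, so the ranges overlapped and every direction below rests on the genotype labels of the livers. Which part of the gene the allele removes is not given in the sources used here. WT replicates 1 and 2 also stood apart in a mitochondrial feature: the nuclear copy *Gm28438* took 96.6% and 96.8% of its joint CPM with *mt-Nd3* there and 2.20% to 3.26% in the other 4 livers. This type and the WT label are partly confounded.

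Hepatocytes take bile acids and other organic anions from sinusoidal blood across the basolateral membrane, conjugate or modify them, and pump them into the bile canaliculus. Uptake rests on the sodium-coupled carrier NTCP (*Slc10a1*) and on sodium-independent carriers of the OATP family (*Slco* genes), canalicular export on the ATP-driven pumps BSEP (*Abcb11*) and MRP2 (*Abcc2*). When bile flow is impaired, basolateral pumps (MRP3 and MRP4, from *Abcc3* and *Abcc4*) and the heterodimeric carrier OSTα-OSTβ (*Slc51a* and *Slc51b*) return bile acids to blood, and the bile acid receptor FXR (*Nr1h4*) is known to raise the export genes and to restrain uptake.

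Promoter sequence of 5 of these genes is given first, because they hold the 4 transporters that fell and the 1 that rose in the comparison of genotypes. The sequences are the 250 bases before the RefSeq start of each gene in GRCm38.p6, read in the direction of transcription, and RefSeq windows were at hand for 9 of the 10 genes. Capitals mark matches to 4 motifs searched on both strands. These were AGGTCANTGACCT, an inverted repeat of the nuclear receptor half-site to which FXR binds with RXR, AGGTCANAGGTCA, a direct repeat of the same half-site, and GTTAATNATTAAC, the HNF1 palindrome, each with at most 2 mismatches in the 12 defined bases, and TGACNNNGC, the core of the antioxidant response element, without mismatches. The first and the second share a half-site and can overlap.
*Abcb11*, chr2:69342617-69342866, reverse strand: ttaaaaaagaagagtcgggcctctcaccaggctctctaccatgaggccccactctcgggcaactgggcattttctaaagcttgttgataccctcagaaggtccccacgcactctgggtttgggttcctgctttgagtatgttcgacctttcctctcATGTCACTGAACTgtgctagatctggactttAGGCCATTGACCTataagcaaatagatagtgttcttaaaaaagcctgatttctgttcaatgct
*Slco1b2*, chr6:141629268-141629517, forward strand: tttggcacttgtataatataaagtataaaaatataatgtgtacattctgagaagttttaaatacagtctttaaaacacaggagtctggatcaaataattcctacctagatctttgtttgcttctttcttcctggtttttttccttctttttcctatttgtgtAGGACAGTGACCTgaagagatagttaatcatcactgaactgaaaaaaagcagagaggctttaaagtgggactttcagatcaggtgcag
*Slco1a1*, chr6:141946963-141947212, reverse strand: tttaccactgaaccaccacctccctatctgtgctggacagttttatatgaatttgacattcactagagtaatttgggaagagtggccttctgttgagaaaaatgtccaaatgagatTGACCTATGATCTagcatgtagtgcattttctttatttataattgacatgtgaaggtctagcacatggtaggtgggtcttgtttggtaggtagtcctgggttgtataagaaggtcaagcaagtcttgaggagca
*Slc10a1*, chr12:80968706-80968955, reverse strand: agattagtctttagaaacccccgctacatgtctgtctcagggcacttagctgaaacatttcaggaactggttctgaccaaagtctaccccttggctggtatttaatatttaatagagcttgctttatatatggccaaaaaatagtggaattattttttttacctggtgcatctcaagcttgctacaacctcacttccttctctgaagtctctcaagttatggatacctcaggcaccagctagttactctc
*Abcc4*, chr14:118706220-118706469, reverse strand: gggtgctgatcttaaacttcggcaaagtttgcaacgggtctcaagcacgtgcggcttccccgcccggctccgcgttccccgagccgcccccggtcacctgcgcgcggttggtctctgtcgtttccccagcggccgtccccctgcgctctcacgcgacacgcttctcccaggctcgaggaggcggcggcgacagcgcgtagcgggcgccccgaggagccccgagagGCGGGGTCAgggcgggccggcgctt

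The *Abcb11* window held the inverted repeat at 2 places, at −63 from the start with 1 mismatch (AGGCCATTGACCT) and at −94 with 2 (ATGTCACTGAACT). The *Slco1b2* window held it at −88 with 1 mismatch (AGGACAGTGACCT). Of all 32851 promoter windows of this length, 0.959% held this motif. The direct repeat, present in 3.24% of windows, was found in *Slco1a1* at −134 with 1 mismatch (TGACCTATGATCT, on the opposite strand). The antioxidant element core, present in 10.2% of windows, lay in the *Abcc4* window at −25 (GCGGGGTCA, on the opposite strand), in a second *Abcc4* window at −23 and in *Abcc2* at −98. *Abcc2* also held the HNF1 palindrome at −75 with 2 mismatches, a motif of 1.24% of windows. The *Slc10a1* window printed above held none of the 4 motifs. A match describes letters only, and binding was not measured.

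Of the transporters, 3 of 5 uptake genes and 1 of 2 canalicular genes fell and 1 of 3 basolateral efflux genes rose in livers labelled *Themis*-KO. With edgeR's quasi-likelihood test and a threshold of 0.05 on the adjusted p, 4 of the 10 transporters fell (*Slco1a1*, *Slc10a1*, *Slco1b2* and *Abcb11*) and 1 rose (*Abcc4*), while 5 did not pass. Among all genes tested, 4.14% fell and 4.97% rose by the same rule. The groups did not overlap for 7 of the 10 transporters, against 34.6% of all genes tested. The median log2 fold change of the 10 was −0.32, that of 9 hepatocyte markers was −0.27 and that of all tested genes was 0.0095. The values below are CPM normalized by TMM, a scaling that offsets differences in RNA composition, and log2 fold changes are *Themis*-KO minus WT.

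**Figure D1:**
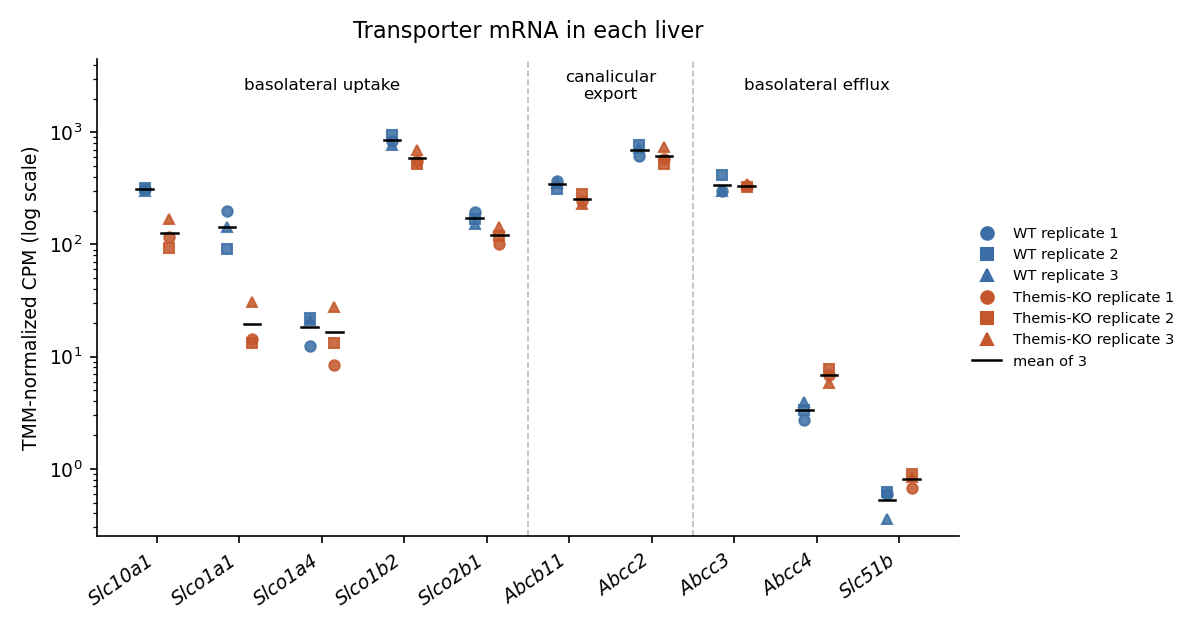
TMM-normalized CPM on a log axis for each of the 10 transporters, with circles, squares and triangles for replicates 1, 2 and 3, WT in blue, *Themis*-KO in orange, and a bar at the mean of 3 livers. *Slc10a1* and *Slco1a1* show the widest gaps between groups, and the *Slco1a4* and *Abcc3* values of the groups are intermingled.

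*Slco1a1* (ENSMUSG00000041698, chromosome 6, 141907282 to 141946962, reverse strand) encodes OATP1A1, an uptake carrier for bile acids and steroid conjugates that is found mainly in male mouse liver. It had 197, 91.9 and 142 CPM in the WT livers and 14.4, 13.1 and 30.7 in the livers labelled *Themis*-KO. The lowest WT liver thus lay well above the highest *Themis*-KO liver, and the means were 144 ± 52.5 and 19.4 ± 9.84 (SD, n = 3 each). The log2 difference was −2.89 ± 0.39 (SE), at an adjusted p of 0.0131 by edgeR, a 7.42-fold difference, with a 95% interval from −3.80 to −1.98.

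*Slc10a1* (ENSMUSG00000021135, chromosome 12, 80953183 to 80968705, reverse strand) encodes NTCP, the main carrier of conjugated bile acids into hepatocytes. Its CPM was 312, 322 and 301 in the WT livers, which varied little, and 116, 92.2 and 169 in the livers labelled *Themis*-KO. Every *Themis*-KO liver was below every WT liver. The means were 312 ± 10.5 and 126 ± 39.4 (SD, n = 3 each), and the log2 difference was −1.31 ± 0.20 (SE), at an adjusted p of 0.0185 by edgeR, with an interval from −1.78 to −0.84.

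*Slco1b2* (ENSMUSG00000030236, chromosome 6, 141629518 to 141686646, forward strand) encodes OATP1B2, which takes up unconjugated bile acids and bilirubin. It had the highest level per length of the 10 genes in both groups. Its CPM was 844, 937 and 773 in the WT livers and 559, 520 and 689 in the livers labelled *Themis*-KO, again without overlap. The log2 difference was smaller, −0.53 ± 0.13 (SE), at an adjusted p of 0.0472 by edgeR, and it passed narrowly. Its adjusted p was 0.0587 with upper quartile scaling and 0.0568 with scaling by total counts alone.

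*Slco2b1* (ENSMUSG00000030737, chromosome 7, 99657804 to 99711340, reverse strand), the gene of the broad-substrate carrier OATP2B1, had 197, 169 and 154 CPM in the WT livers and 101, 120 and 143 in the livers labelled *Themis*-KO. The groups did not overlap, but the gene did not pass, its log2 difference being −0.51 ± 0.15 (SE), at an adjusted p of 0.0644 by edgeR. With DESeq2 the adjusted p was 0.0136.

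*Slco1a4* (ENSMUSG00000030237, chromosome 6, 141805440 to 141856199, reverse strand) encodes OATP1A4, a close relative of OATP1A1, and lies between *Slco1b2* and *Slco1a1* on the chromosome. Its CPM was 12.4, 21.9 and 21.0 in the WT livers and 8.50, 13.2 and 27.8 in the livers labelled *Themis*-KO, so the *Themis*-KO livers spanned the whole WT range. The log2 difference was −0.17 ± 0.41 (SE), at an adjusted p of 0.809 by edgeR, and its interval, from −1.11 to 0.78, leaves room for a sizeable change in either direction. Without *Themis*-KO replicate 1 the change was 0.15. The 3 genes of this stretch of chromosome 6 thus had log2 differences of −0.53, −0.17 and −2.89 in their order along it. In GENCODE transcripts, 1.64% of the 50-base words of *Slco1a1* and 1.61% of those of *Slco1a4* also occur in other genes, mostly *Slco1a5*, which was not analysed here. RSEM divides such reads among the genes.

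At the canalicular membrane, *Abcb11* (ENSMUSG00000027048, chromosome 2, 69238282 to 69342616, reverse strand), which encodes the bile salt export pump, had 371, 314 and 351 CPM in the WT livers and 246, 281 and 230 in the livers labelled *Themis*-KO. All *Themis*-KO livers were lower. The log2 difference was −0.45 ± 0.11 (SE), at an adjusted p of 0.0435 by edgeR, a 1.37-fold difference, and −0.31 at an adjusted p of 0.105 with scaling by total counts alone. Its promoter window holds the inverted repeat, as that of *Slco1b2* does, and a link between these matches and the changes was not tested.

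*Abcc2* (ENSMUSG00000025194, chromosome 19, 43782192 to 43840740, forward strand) encodes MRP2, the canalicular pump for glucuronide and glutathione conjugates such as those of bilirubin. Its CPM was 616, 770 and 719 in the WT livers and 577, 522 and 737 in the livers labelled *Themis*-KO. The ranges overlapped because *Themis*-KO replicate 3 exceeded 2 of the WT livers, and the log2 difference was −0.20 ± 0.15 (SE), at an adjusted p of 0.395 by edgeR, with an interval from −0.54 to 0.15.

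**Figure D2:**
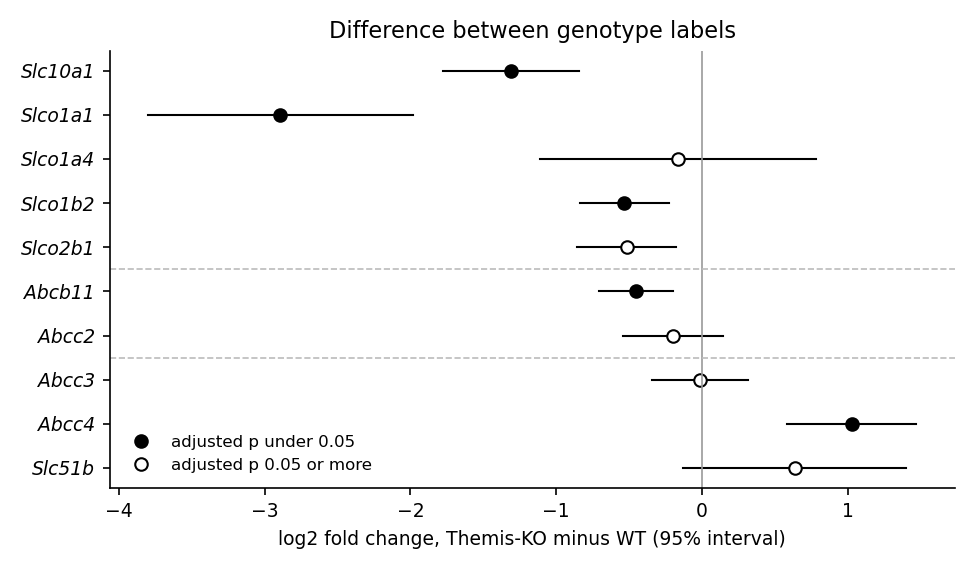
Log2 fold change of each transporter, *Themis*-KO minus WT, with its 95% interval as a line, filled circles for an adjusted p under 0.05 and dashed lines between uptake, canalicular and basolateral efflux genes. All 5 uptake genes and both canalicular genes lie left of 0, 4 of these 7 with filled circles, and *Abcc4*, at 1.03, is the filled circle to the right.

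Among the basolateral efflux genes, *Abcc4* (ENSMUSG00000032849, chromosome 14, 118482692 to 118706219, reverse strand), which encodes the cotransporter of bile acids and glutathione MRP4, rose. It had 2.71, 3.36 and 3.91 CPM in the WT livers, from 59, 70 and 99 counts, and 6.93, 7.70 and 5.76 in the livers labelled *Themis*-KO, from 163, 179 and 122 counts. The lowest *Themis*-KO liver was above the highest WT liver. The log2 difference was 1.03 ± 0.19 (SE), at an adjusted p of 0.0273 by edgeR, with an interval from 0.58 to 1.47.

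*Abcc3* (ENSMUSG00000020865, chromosome 11, 94343295 to 94392997, reverse strand), the gene of the glucuronide and bile acid pump MRP3, is expressed in hepatocytes and in bile duct cells. Its CPM was 299, 416 and 297 in the WT livers and 331, 324 and 349 in the livers labelled *Themis*-KO, which fell within the WT range. The log2 difference was −0.013 ± 0.14 (SE), at an adjusted p of 0.959 by edgeR, and the interval ran from −0.34 to 0.31. Its sign depended on the processing and was positive, at 0.13, with scaling by total counts alone.

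*Slc51b* (ENSMUSG00000053862, chromosome 9, 65412714 to 65422955, reverse strand) encodes OSTβ, a target of FXR that rises in human cholestasis. It was near the limit of detection, with 13, 13 and 9 counts in the WT livers (0.596, 0.624 and 0.355 CPM) and 16, 21 and 18 in the livers labelled *Themis*-KO (0.680, 0.903 and 0.850 CPM). The groups did not overlap, yet the log2 difference of 0.64 ± 0.33 (SE), at an adjusted p of 0.228 by edgeR, did not pass. Its partner *Slc51a*, with 2 to 13 counts per liver, was below the filter on low counts.

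Levels were compared between genes as CPM per kb of exon (GENCODE vM21, GRCm38). In the WT livers the order was *Slco1b2* (173 ± 16.7), *Slc10a1* (142 ± 4.79), *Abcc2* (82.2 ± 9.19), *Abcb11* (67.1 ± 5.62), *Abcc3* (59.2 ± 12.0), *Slco2b1* (29.1 ± 3.65), *Slco1a1* (27.2 ± 9.95), *Slco1a4* (2.88 ± 0.82), *Slc51b* (0.74 ± 0.21) and *Abcc4* (0.52 ± 0.094; all mean ± SD, n = 3). The ranges of *Abcc3* and both *Abcb11* and *Abcc2*, of *Slco2b1* and *Slco1a1*, and of *Slc51b* and *Abcc4* overlapped. In the livers labelled *Themis*-KO, *Slc10a1* was in the fourth place at 57.2 ± 17.9 CPM per kb, within the range of *Abcc3* (58.7 ± 2.25), and its range also overlapped those of *Abcb11* (49.0 ± 5.06) and *Abcc2* (71.7 ± 13.1). There *Slco1a1*, at 3.68 ± 1.86, overlapped *Slco1a4*, at 2.57 ± 1.57.

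Summed over the 5 uptake genes, the level per length was 385, 386 and 350 CPM per kb in the WT livers and 187, 172 and 251 in the livers labelled *Themis*-KO. For the 2 canalicular genes the sums were 144, 151 and 152 against 115, 116 and 131, and for the 3 basolateral efflux genes 53.8, 74.5 and 53.2 against 60.2, 59.3 and 63.3. As ratios of the group means, these were 0.544, 0.809 and 1.01. *Abcc3* made up 95.8% to 98.1% of the efflux sum in every liver, so the rise of *Abcc4* is not visible in it. Within the uptake sum, the mean share of *Slc10a1* was 38.0% in WT and 27.7% in *Themis*-KO, that of *Slco1a1* 7.30% and 1.74%, and that of *Slco1b2* 46.2% and 59.2%. These sums describe transcripts and carry no test.

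**Figure D3:**
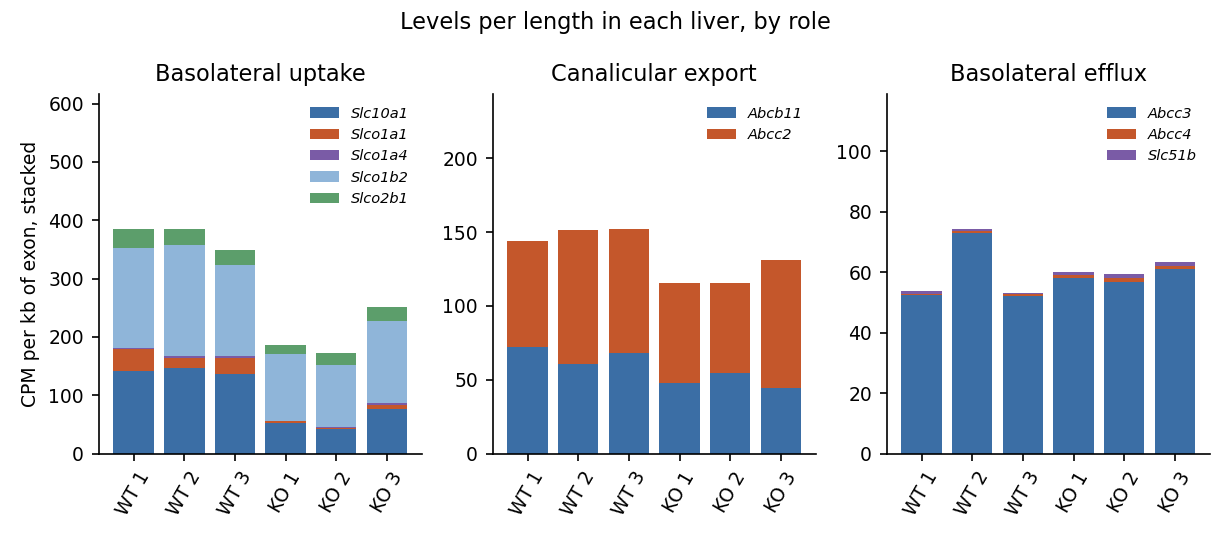
CPM per kb of exon in each of the 6 livers, stacked by gene and drawn in a panel each for basolateral uptake, canalicular export and basolateral efflux, with separate vertical scales that start at 0. Uptake bars reach 350 to 386 in WT and 172 to 251 in *Themis*-KO, while the efflux bars of the groups overlap and consist almost wholly of *Abcc3*.

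*Themis*-KO replicate 3 had the highest CPM of its group for each of the 5 uptake genes and for *Abcc2* and *Abcc3*, and the lowest for *Abcb11* and *Abcc4*. The calls depended on which livers were included. In fits that omitted 1 liver, the number of transporters that fell was 0 without WT replicate 1, 1 without WT replicate 2, 2 without WT replicate 3, 0 without *Themis*-KO replicate 1, 0 without *Themis*-KO replicate 2 and 5 without *Themis*-KO replicate 3. Among all genes tested (14738 to 14855 in these fits), the number that fell was 32, 57, 369, 12, 41 and 2039 in the same order. With all 6 livers it was 600. *Abcc4* passed only without WT replicate 3 or *Themis*-KO replicate 3. Over these 6 fits the log2 fold change ran from −3.40 to −2.60 for *Slco1a1*, from −1.60 to −1.13 for *Slc10a1*, from −0.67 to −0.45 for *Slco1b2*, from −0.54 to −0.40 for *Abcb11* and from 0.90 to 1.16 for *Abcc4*. With the mitochondrial type as a covariate, which leaves WT replicate 3 as the only WT liver of the type of the *Themis*-KO livers, 0 transporters passed in either direction, and 0 of 14496 genes rose and 3 fell. In that edgeR fit the log2 fold change was −2.88 for *Slco1a1*, −1.26 for *Slc10a1*, −0.39 for *Slco1b2*, −0.48 for *Abcb11* and 0.80 for *Abcc4*.

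Of 9 hepatocyte markers tested, 0 passed in edgeR's test, 3 had an unadjusted p under 0.05 and 4 were lower by DESeq2. Their log2 differences ran from −0.81 to −0.085, with all 9 negative and a median of −0.27. The median was −0.14 with scaling by total counts alone, where *Ahsg* was positive (0.053). The groups did not overlap for 5 of the 9 markers, against 34.6% of all genes tested. Their summed CPM was 60625 to 68475 in the WT livers and 54052 to 55167 in the livers labelled *Themis*-KO. For the 3 markers with the highest level, the log2 differences were −0.26 for *Alb* (adjusted p = 0.185), −0.087 for *Ahsg* (adjusted p = 0.794) and −0.29 for *Apoa1* (adjusted p = 0.107). In bulk tissue, fewer hepatocytes and less RNA per hepatocyte cannot be told apart, and the part of this shift in the transporter values was not tested.

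Several markers of other liver cells were higher. Of 7 cholangiocyte markers tested, *Cldn7* rose (log2 fold change 1.35, adjusted p = 0.0399 from edgeR) and 6 did not pass, and the summed CPM of the 8 listed was 14.1 to 18.5 in WT and 22.7 to 49.2 in *Themis*-KO. Of 11 macrophage markers, *Cd68* (1.06, adjusted p = 0.0369) and *Trem2* (1.49, adjusted p = 0.0255) rose and 9 did not pass, with sums of 400 to 693 and 661 to 838. The log2 differences of 2 were negative, *Marco* (−1.29, adjusted p = 0.248) and *Timd4* (−0.63, adjusted p = 0.239). Of 8 endothelial markers *Lyve1* rose (0.86, adjusted p = 0.0131) and 7 did not pass, with sums of 240 to 262 and 271 to 299. The log2 differences of 2 endothelial markers were negative, and the median of the 8 was 0.15. Of 7 stellate cell markers, *Col1a1* (1.15, adjusted p = 0.0248), *Dcn* (0.39, adjusted p = 0.0423) and *Pdgfrb* (0.80, adjusted p = 0.0386) rose and 4 did not pass, with sums of 331 to 376 and 461 to 467. No marker of these lists was at 0 in all livers. *Abcc3*, *Abcc4* and *Slc51b* are also transcribed in cells other than hepatocytes, and the part of those cells in their values was not tested.

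Among 21 further genes of bile, sterol and organic anion transport, 20 were listed and 15 were tested, of which 3 fell, 3 rose and 9 did not pass. The canalicular sterol pump is a heterodimer of *Abcg5* and *Abcg8*. *Abcg5* had 230, 239 and 192 CPM in WT and 100, 115 and 128 in *Themis*-KO (log2 fold change −0.95, SE 0.13, adjusted p = 0.0128 from edgeR), and *Abcg8* fell too (−0.97 ± 0.14, adjusted p = 0.0146). *Slc10a5*, a relative of *Slc10a1*, fell by 1.02 (adjusted p = 0.0249). *Abcb4*, which flips the phospholipid of bile, did not pass, with 308, 376 and 337 CPM in WT and 378, 371 and 336 in *Themis*-KO (log2 fold change 0.087, SE 0.10, adjusted p = 0.595). The 3 that rose were *Abcc1* (1.10, adjusted p = 0.0304) and *Abcc5* (0.58, adjusted p = 0.0253), basolateral pumps of the family of *Abcc4*, and *Slco3a1* (0.88, adjusted p = 0.0457), a member of the OATP family.

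Of 17 regulators of these transporters, most of them transcription factors and receptors, 16 were tested, 4 fell and 0 rose in edgeR's test. With scaling by total counts alone 1 fell and 1 rose, with DESeq2 7 fell and 1 rose, and with the replicate block 0 passed. *Nr0b2*, which encodes SHP, the repressor that FXR induces, had 18.7, 26.4 and 24.2 CPM in WT and 11.4, 15.1 and 15.1 in *Themis*-KO (log2 fold change −0.73, SE 0.17, adjusted p = 0.0397). *Rxra*, the common partner of FXR and related receptors, fell by 0.42 (adjusted p = 0.0351), *Ppara* by 0.52 (adjusted p = 0.0345) and *Klb*, the coreceptor for FGF15 on hepatocytes, by 0.49 (adjusted p = 0.0487). FXR itself, *Nr1h4*, had 118, 148 and 130 CPM in WT and 103, 94.5 and 133 in *Themis*-KO, ranges that overlapped (log2 fold change −0.27, SE 0.15, adjusted p = 0.250). The log2 difference of *Hnf4a* was 0.045 (adjusted p = 0.842) and that of *Cebpa* −0.28 (adjusted p = 0.0931). The receptor of cholestatic and xenobiotic induction CAR, *Nr1i3*, had a log2 fold change of −0.78 (adjusted p = 0.0720) without overlap between groups.

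**Figure D4:**
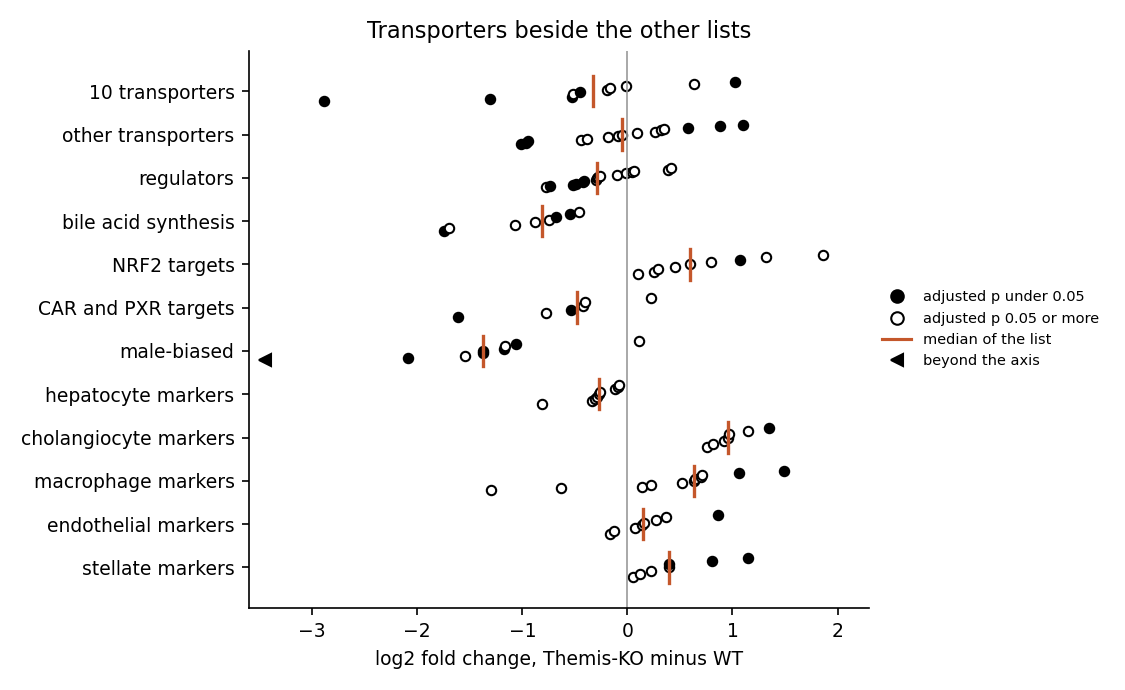
Log2 fold change, *Themis*-KO minus WT, of each tested gene of the 10 transporters and of 11 other lists, with filled symbols for an adjusted p under 0.05, an orange bar at each list's median and a triangle for *Hsd3b5*, which lies beyond the left end of the axis. All 8 bile acid synthesis genes are left of 0, all 9 NRF2 targets right of it, and the bar of the transporters stands at −0.32.

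Of 8 bile acid synthesis and conjugation genes, 3 fell and 0 rose, with a median log2 fold change of −0.81. The enzymes of the alternative pathway *Cyp7b1* (−1.74, adjusted p = 0.0123) and *Cyp27a1* (−0.55, adjusted p = 0.0264) fell, as did *Slc27a5*, which activates bile acids for conjugation (−0.68, adjusted p = 0.0209, all from edgeR), and *Cyp8b1*, the 12α-hydroxylase, did not pass (−0.88, adjusted p = 0.0910). *Cyp7a1*, the rate-limiting enzyme of the classical pathway, had 61.6, 166 and 84.96 CPM in WT and 11.6, 9.33 and 75.8 in *Themis*-KO. *Themis*-KO replicate 3 lay within the WT range, and the log2 difference of −1.70 ± 0.78 (SE) did not pass (adjusted p = 0.183 by edgeR).

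NRF2 is known to induce *Abcc4* and other *Abcc* genes, and 9 of its targets were examined. *Srxn1*, which encodes sulfiredoxin, rose: it had 71.7, 91.8 and 120 CPM in WT and 227, 230 and 139 in *Themis*-KO (log2 fold change 1.07, SE 0.24, adjusted p = 0.0392 from edgeR). The other 8 did not pass, although all 9 changes were positive, with a median of 0.59. *Gclc*, of glutathione synthesis, had 233, 381 and 384 CPM in WT and 1180, 928 and 391 in *Themis*-KO (1.32, adjusted p = 0.0657), with replicate 3 of the *Themis*-KO livers just above the WT range. The log2 difference of *Gstm1*, a glutathione transferase, was 0.29 (adjusted p = 0.392).

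*Slco1a1* belongs to the genes that growth hormone pulses keep high in male mouse liver. Of 9 other genes with male-biased expression, 6 fell and 0 rose, namely *Cyp2d9* (−1.06, adjusted p = 0.0170), *Cyp4a12a* (−1.17, adjusted p = 0.0152), *Cyp4a12b* (−2.09, adjusted p = 0.0152), *Elovl3* (−1.37, adjusted p = 0.0104), *Nudt7* (−1.38, adjusted p = 0.0147) and *Hsd3b5*, all by edgeR. *Hsd3b5* varied widely among the WT livers, with 30.3, 2.59 and 12.6 CPM, and had 3 counts or fewer in each *Themis*-KO liver. Against a floor of 3 counts per library it was at least 107-fold lower, and at least 53.7-fold lower without WT replicate 1. WT replicate 2 alone was 18.3-fold above the floor. *Mup20* did not pass (0.11, adjusted p = 0.693). *Cyp4a12a*, *Cyp4a12b* and the *Mup* genes have near-identical copies, so their values are uncertain.

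**Figure D5:**
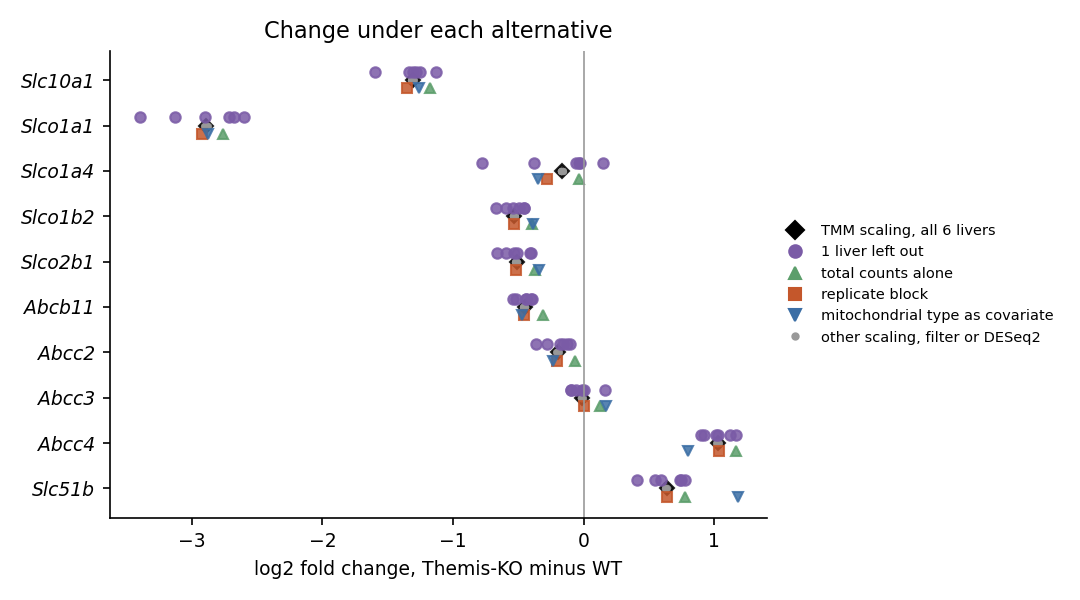
Log2 fold change of each transporter, *Themis*-KO minus WT, with all 6 livers and TMM scaling (diamonds), with 1 liver left out (circles), with scaling by total counts alone (triangles pointing up), with the replicate number as a block (squares), with the mitochondrial type as a covariate (triangles pointing down) and under other settings (dots). *Slco1a1*, *Slc10a1*, *Slco1b2*, *Slco2b1*, *Abcb11* and *Abcc2* stay left of 0 and *Abcc4* and *Slc51b* right of it, whereas *Slco1a4* and *Abcc3* cross it.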

How the data were processed

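Poly(A) libraries of 6 livers were sequenced as paired ends. The authors trimmed adapters with cutadapt 2.3 (submitters' processing notes), mapped reads to GRCm38 with STAR 2.7.8a and estimated gene counts with RSEM 1.3.3. They deposited the estimated counts without normalization, as whole numbers. The annotation release is not given in the sources used here.

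Tests used edgeR 4.0.16 under R 4.3.3 (filterByExpr, which removed 10907 of 25403 genes, TMM scaling, glmQLFit and glmQLFTest on all 6 livers, with genotype as the sole term). Benjamini-Hochberg adjustment covered 14496 genes, with a threshold of 0.05, and SE were derived from the F statistic. Alternatives were RLE, upper quartile and total count scaling, DESeq2 1.42.0, no filter, a minimum of 10 counts per liver, the mitochondrial type, the replicate block and omission of each liver. The fits were also run on simulated counts with 1 dispersion for all genes and no liver that departs from its group. That setting cannot speak to the dependence of the calls on single livers. The study speaks of pairs of WT and *Themis*-KO livers, but the labels do not say which livers form a pair. Libraries of the same group differed by more than sampling noise (lowest chi-square per degree of freedom 9.81). Each library is 1 liver, so differences between animals and between library preparations cannot be told apart. The p-values set the genotype difference against both together.

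The 10 genes, the lists and the tests were chosen with earlier results of these data known. Where a symbol had several rows, that with the largest total count was used. Named are all 10 transporters, *Themis*, and from each list the genes with an adjusted p under 0.05 and up to 3 with the highest level. *Nr1h4*, *Nr1i3*, *Cyp7a1*, *Slc51a*, *Marco*, *Timd4* and the sex-linked genes were named after their values were seen. Of the lists, *Sult2a1*, *Cyp3a16*, *Tf* and *Slco1a5* were not analysed here, and 1 cholangiocyte marker is not reported here. Gene positions and exon lengths are from GENCODE vM21 and promoters from RefSeq (GRCm38.p6). Figures were drawn with matplotlib 3.10.9.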

Additional observations from a re-analysis of the deposited data

How the results depend on the processing

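Of 139 alternative values of the 10 transporters, 97 kept direction and side of the threshold, 33 lost the call, 3 gained it and 6 changed sign, none of them of a gene that passed. Of 14 alternatives for each gene that passed, the call was kept in 10 for *Slco1a1*, 8 for *Slc10a1*, 5 for *Slco1b2*, 6 for *Abcb11* and 8 for *Abcc4*. The number of transporters that fell, 4 with all livers, was 1 with the replicate block, 2 with scaling by total counts alone and 0 with the mitochondrial type as a covariate, and ran from 0 to 5 with each liver left out. The number that rose, 1, was 0 with the replicate block and with the mitochondrial type, and ran from 0 to 1 with each liver left out. Same-numbered livers did not deviate together (correlations 0.014, −0.35 and −0.19), no liver correlated best with its own number, and with the replicate block 17 genes rose and 45 fell against 721 and 600. Scaling by total counts alone moved the median of all genes from 0.0095 to 0.15 and gave 1449 rises and 387 falls. DESeq2 gave 1273 and 1084. Of the other lists, DESeq2 called 7 bile acid synthesis genes lower (3 by edgeR), 4 NRF2 targets higher (1), 6 macrophage markers higher (2) and 5 further transport genes lower (3), and with the replicate block these counts were 1, 0, 0 and 0. With each liver left out, 8 genes (*Themis*-KO replicate 1 omitted) to 2228 genes (*Themis*-KO replicate 3 omitted) rose, and 12 to 2039 genes fell with the same livers omitted. The causes were not tested.

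*Abcc3* changed sign with scaling by total counts alone (0.13), the replicate block (0.0053) and the mitochondrial type (0.17), and ran from −0.099 to 0.16 with each liver left out, where *Slco1a4* ran from −0.78 to 0.15. Of 56 other named genes, 7 changed sign, none of which passed the test. With total counts alone the log2 difference was 0.053 for *Ahsg*, and it was 0.13 for *Alas1* and −0.17 for *Clec4f* with the mitochondrial type. With each liver left out, *Ahsg* ran from −0.25 to 0.049, *Hnf4a* from −0.088 to 0.14, *Mup20* from −0.060 to 0.22, *Reln* from −0.059 to 0.11 and *Stab2* from −0.042 to 0.14. *Slc51b* had no value with at least 10 counts in every liver. Counts per liver were low for *Slc51b*, at 9 to 21, and for *Abcc4*, at 59 to 179.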

Other observations

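Targets of the xenobiotic receptors CAR and PXR, which also act on *Slco1a4* and *Abcc2*, were examined as a list of 6 genes. *Cyp2c29* fell, with a CPM of 595 ± 77.8 in WT and 194 ± 50.8 in *Themis*-KO (SD, n = 3 each, log2 fold change −1.61, adjusted p = 0.0104 from edgeR), and *Por*, the electron donor of microsomal cytochromes P450, fell by 0.53 on the log2 scale (adjusted p = 0.0367). *Cyp3a11* (−0.42, adjusted p = 0.189) and *Alas1* (−0.40, adjusted p = 0.492) did not pass.

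Of 9 female-biased genes, 7 were listed and 2 had enough counts to be tested. *Cyp2b9* had 26.7, 58.7 and 58.6 CPM in WT and 90.5, 72.6 and 106 in *Themis*-KO, and *Cyp2a4* had 1.74, 14.7 and 21.7 in WT and 46.8, 55.1 and 109 in *Themis*-KO. The groups did not overlap for either gene, and neither passed, with log2 fold changes of 0.90 (adjusted p = 0.0845) and 2.46 (adjusted p = 0.0645 from edgeR).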
